A study of Mus musculus with 4 samples.

Results

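Nonsense-mediated decay and the RNase P route are 2 ways by which an m6A-marked mRNA can be handed to nucleases, and 9 genes of these routes were followed here in mouse embryonic stem cells (ESCs) with altered YTHDF2. They were *Upf1*, *Upf2*, *Upf3b*, *Smg1*, *Smg5*, *Smg6*, *Rida*, *Pop1* and *Rpp30*, taken by symbol from the 50559 genes of the deposited count table, and all 9 were found. Poly(A)+ RNA of E14 ESCs, a feeder-free line grown on gelatin with LIF and knockout serum replacement, was sequenced in 4 libraries with 1 library per group. The shscr+EV library came from cells with a scrambled short hairpin RNA (shRNA) and an empty vector. The shYthdf2+EV library came from cells with a hairpin against *Ythdf2* and the empty vector. In shYthdf2+WT the same knockdown carried wild-type YTHDF2, and in shYthdf2+Mut it carried a form of YTHDF2 that cannot bind m6A. The shRNA lines were made by lentivirus and puromycin selection according to the study's methods, so the control carried a hairpin and a vector as well. The labels do not say which of the study's *Ythdf2* hairpins was used, nor whether a line was a single clone.

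Nonsense-mediated decay (NMD) removes mRNAs on which translation ends early. The helicase UPF1 is joined at the stalled ribosome by UPF2 and UPF3B, phosphorylated by the kinase SMG1, and then bound by SMG5, an adaptor, and SMG6, an endonuclease that cuts the mRNA. YTHDF2, a cytoplasmic reader of m6A, can reach RNase P/MRP through the bridging protein RIDA (also called HRSP12), can associate with UPF1, and recruits the CCR4-NOT deadenylase through CNOT1. POP1 and RPP30 are protein subunits of RNase P and RNase MRP, which cut precursor tRNA and rRNA. The study silenced *Upf1* and *Rida* in separate experiments that are not analysed here, and the comparison below asks whether the mRNAs of these factors themselves differed when YTHDF2 was lowered and restored.

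The libraries held 31533129 to 35742335 counted reads. *Ythdf2* itself was counted 2806 times in shscr+EV, 662 times in shYthdf2+EV, 7661 times in shYthdf2+WT and 6925 times in shYthdf2+Mut, in the order that the labels give. Mitochondrial genes took 8.44% of the reads in shscr+EV and 6.14% to 6.75% in the others. All 8 ESC markers examined were above 3 counts in every library, with summed levels of 4956 to 5376 CPM, the counts per 1000000 scaled reads. The 6 markers of 2-cell-like cells summed to 87.8 CPM in shscr+EV, 314 in shYthdf2+EV, 102 in shYthdf2+WT and 272 in shYthdf2+Mut. Summed levels were 10.2 to 16.5 CPM for 6 primitive endoderm markers (*Foxa2* at 0 in shscr+EV), 24.9 to 33.5 CPM for 5 trophectoderm markers and 10.9 to 16.5 CPM for 5 fibroblast markers (*Col3a1* at 0 in shscr+EV and shYthdf2+WT).

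With 1 library per group no test between conditions was possible, and every difference compares libraries, not conditions. Ratios carry 95% Clopper-Pearson intervals on read pairs, and levels carry Poisson intervals, both of which cover counting error only. A difference is called beyond counting error where its interval excludes 0 on the log2 scale. In bulk RNA, fewer cells of a type and less RNA per cell cannot be told apart.

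None of the 9 mRNAs differed by 2-fold between any pair of libraries, in any of the 6 comparisons. In shYthdf2+EV against shscr+EV, 7.1% of the 18586 genes tested, which averaged 10 or more reads, were higher by 2-fold or more and 5.7% were lower by as much. None of the members reached 1.5-fold in any comparison either, which 13.8% of tested genes did upwards and 12.9% downwards on knockdown. The widest span over the 4 libraries was 1.396-fold, for *Upf2*, and the narrowest was 1.06-fold, for *Smg5*. *Ythdf2* spanned 12.6-fold. For *Smg5* 1.31% of tested genes had a narrower span, whereas for *Upf2* 45.5% did. The fold and span shares here and below include genes of few reads, whereas every member averaged 500 or more. On knockdown the quartiles of the log2 ratio were -0.30 and 0.31 for all tested genes. For the 8542 genes averaging 500 or more reads they were -0.19 and 0.19, so the shares past a fold are not those of genes of like depth. The plot of CPM by library shows the members at nearly level heights beside the targeted gene.

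**Figure D1:**
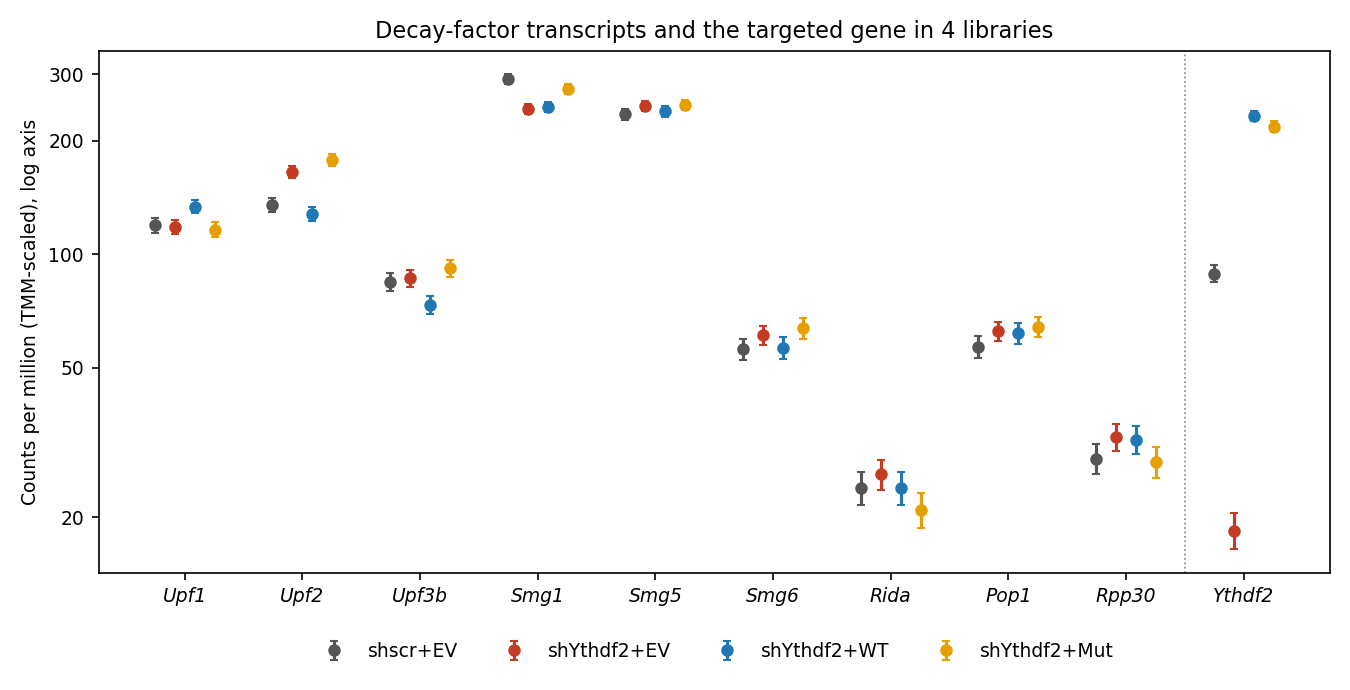
CPM (log axis) of the 9 members and *Ythdf2* in each of the 4 libraries, 1 point per library, with 95% Poisson counting intervals as bars. The points of each member lie within 1.396-fold of each other, while those of *Ythdf2* span 12.6-fold.

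The mRNAs of *Upf1*, *Upf2* and *Smg1* hold the core m6A motif GGAC near their stop codons, and a window around it is printed because *Upf2* and *Smg1* had the highest and the lowest ratio of knockdown to control and *Upf1* was silenced by the study. The sequences are from GENCODE vM21 transcripts, 30 bases each, 5′ to 3′ on the transcribed strand with T for U and GGAC in capitals. For each gene the window is that of the GGAC nearest the stop codon, within 200 bases of it, whose window lay in 1 exon.
Upf1: gagcggccagggaGGACgacagagcggagc
Upf2: gaatgagagcagcGGACacatctcagcatg
Smg1: ctgtatgaaggttGGACagcttgggtgtga
The *Upf1* window lies in the 3′ UTR at mm10 chr8:70332287-70332316 on the minus strand, and its GGAC begins 180 bases past the stop codon. That of *Upf2* is in the 3′ UTR at mm10 chr2:6055512-6055541 on the plus strand, with GGAC beginning 83 bases past the stop codon. The *Smg1* window lies in the coding sequence at mm10 chr7:118135541-118135570 on the minus strand, and 13 bases separate its GGAC from the end of the stop codon. Searched on the sense strand, 7 of the 9 members (77.8%) had a GGAC within 200 bases of the stop codon, *Rida* and *Pop1* being without one, against 80.9% of 14312 coding genes tested. The members had a median of 4.27 GGAC per kilobase of transcript, against 4.29 for all. A match is a match of letters only, and methylation was not measured in these libraries.

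*Upf1* (mm39 chromosome 8, 70784143 to 70806418, minus strand), the RNA helicase at the centre of NMD, was counted 3775 times in shscr+EV, 4241 times in shYthdf2+EV, 4404 times in shYthdf2+WT and 3694 times in shYthdf2+Mut. On the scale of library depth these are 119, 118, 134 and 116 CPM. The shYthdf2+WT library stood above the other three, whose values did not differ beyond counting error. The log2 ratio of shYthdf2+EV to shscr+EV was -0.02 (95% interval -0.11 to 0.07), that of shYthdf2+WT to shYthdf2+EV was 0.18 (0.09 to 0.27), and that of shYthdf2+Mut to shYthdf2+WT was -0.20 (-0.29 to -0.11).

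*Upf2* (chromosome 2, 5956218 to 6061514, plus strand) encodes the adaptor between UPF1 and UPF3B. It was counted 4277 times in shscr+EV, 5949 times in shYthdf2+EV, 4198 times in shYthdf2+WT and 5661 times in shYthdf2+Mut, or 135, 165, 128 and 178 CPM. Knockdown and mutant rescue were the higher pair, and the control and the wild-type rescue were the lower pair and did not differ beyond counting error. The log2 ratio was 0.29 (0.21 to 0.37) for shYthdf2+EV over shscr+EV, -0.38 (-0.46 to -0.29) for shYthdf2+WT over shYthdf2+EV, and 0.48 (0.40 to 0.56) for shYthdf2+Mut over shYthdf2+WT, the last the largest ratio of any member. The summed 2-cell-like markers had the same 2 high and 2 low libraries, and their part in the *Upf2* values was not tested.

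*Upf3b* (chromosome X, 36355331 to 36374124, minus strand), whose protein links UPF2 to the exon junction complex, had 2664, 3098, 2412 and 2918 reads in shscr+EV, shYthdf2+EV, shYthdf2+WT and shYthdf2+Mut. Its levels were 84.3, 86.2, 73.3 and 91.7 CPM in that order. The wild-type rescue was the low library and the other three did not differ between neighbours. shYthdf2+Mut exceeded shYthdf2+WT by a log2 ratio of 0.32 (0.21 to 0.44), while knockdown over control was 0.03 (-0.07 to 0.14).

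The SMG members went different ways on knockdown. *Smg1* (chromosome 7, 117730531 to 117843026, minus strand), the UPF1 kinase, was counted 9208 times in shscr+EV, 8712 in shYthdf2+EV, 8113 in shYthdf2+WT and 8731 in shYthdf2+Mut, or 291, 242, 246 and 275 CPM. It was the only member lower beyond counting error in shYthdf2+EV than in shscr+EV, by a log2 ratio of -0.27 (-0.33 to -0.21). The wild-type rescue lay at 0.02 (-0.04 to 0.09) over shYthdf2+EV, within counting error, while shYthdf2+Mut lay 0.18 (0.12 to 0.24) above shYthdf2+EV.

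*Smg5* (chromosome 3, 88242050 to 88269645, plus strand) was the most even of all members, with 7424, 8897, 7875 and 7921 reads and 235, 247, 239 and 249 CPM in the same order of libraries. None of its neighbouring libraries differed beyond counting error. *Smg6* (chromosome 11, 74816665 to 75055274, plus strand) had 1765, 2188, 1855 and 2021 reads, or 55.9, 60.9, 56.4 and 63.5 CPM, again with no neighbouring libraries apart. The highest *Smg6* library, shYthdf2+Mut, exceeded shYthdf2+WT by a log2 ratio of 0.17 (0.04 to 0.30). Of the exon bases of *Smg6*, 27.9% were shared with exons of *Hic1* and *Srr* on the opposite strand, and reads there were given to no gene because the table was made without strand.

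*Rida* and *Pop1* are neighbours on chromosome 15 and point away from each other. *Rida* occupies 34484168 to 34495392 on the minus strand and *Pop1* 34495457 to 34530799 on the plus strand, with 64 bases between their 5′ ends. Of all tested genes, 10.1% had such a head-to-head neighbour within 1000 bases. *Rida*, which encodes an imine deaminase that also bridges YTHDF2 to RNase P, was counted 755, 935, 788 and 664 times in shscr+EV, shYthdf2+EV, shYthdf2+WT and shYthdf2+Mut, or 23.9, 26.0, 23.9 and 20.9 CPM. Control and wild-type rescue were alike in value, with a log2 ratio of 0.00 (-0.20 to 0.21). The mutant library had the lowest value, at -0.32 (-0.52 to -0.11) against shYthdf2+EV. It was within counting error of shscr+EV, at -0.19 (-0.41 to 0.02), and of shYthdf2+WT, at -0.20 (-0.41 to 0.02). *Pop1* was counted 1794, 2242, 2028 and 2042 times, or 56.8, 62.4, 61.6 and 64.2 CPM. Its control library had the lowest value, though shYthdf2+WT over shscr+EV was within counting error, at 0.12 (-0.01 to 0.25). In shYthdf2+Mut over shYthdf2+EV the log2 ratio of *Pop1* was 0.04 (-0.08 to 0.17), beside the lower *Rida*.

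*Rpp30* (chromosome 19, 36061089 to 36082173, plus strand) had 904, 1174, 1058 and 890 reads, or 28.6, 32.7, 32.1 and 28.0 CPM. shYthdf2+EV and shYthdf2+WT were its higher libraries, and no neighbouring libraries differed beyond counting error. Knockdown over control gave a log2 ratio of 0.19 (0.01 to 0.37), and shYthdf2+Mut over shYthdf2+EV gave -0.22 (-0.40 to -0.04). On knockdown the other members of the RNase P route had log2 ratios of 0.12 for *Rida* (-0.08 to 0.32) and 0.14 for *Pop1* (0.01 to 0.26), the former within counting error.

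Over the 9 members, shYthdf2+EV was above shscr+EV beyond counting error for 4 (*Upf2*, *Smg5*, *Pop1* and *Rpp30*) and below it for 1 (*Smg1*). The same was true upwards of 23.2% of all tested genes and downwards of 22.9%, and among the 8542 genes that averaged 500 or more reads, as all 9 members did, of 31.7% and 31.9%. The members' median log2 ratio was 0.12, against 0.00 for all tested genes. Differences of this kind were thus common among genes of like depth.

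In shYthdf2+WT over shYthdf2+EV, 1 member (*Upf1*) was higher and 2 (*Upf2* and *Upf3b*) were lower beyond counting error, beside 21.1% and 21.5% of all tested genes and 28.3% and 31.8% of those averaging 500 or more reads. Genes 2-fold apart or more in this comparison made up 5.15% (higher) and 5.58% (lower), and 12.2% and 11.1% were past 1.5-fold, with no member among them. The members' median was -0.05. In shYthdf2+Mut over shYthdf2+EV, 2 members (*Upf2* and *Smg1*) were higher and 2 (*Rida* and *Rpp30*) lower, beside 14.7% and 12.9% of tested genes and 25.4% and 18.9% of the deeper ones. Here 2.65% and 3.38% of tested genes were higher and lower by 2-fold and 6.5% and 8.78% by 1.5-fold, and the members' median was 0.04. These comparisons and the first share the shYthdf2+EV library.

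shYthdf2+Mut over shYthdf2+WT contrasts the 2 rescue forms. Beyond counting error *Upf2*, *Upf3b*, *Smg1* and *Smg6* were higher and *Upf1* and *Rpp30* were lower, which 23.9% and 23.6% of tested genes and 37.1% and 31.1% of the deeper ones also were. At 2-fold, 5.4% of tested genes were higher and 6.21% lower, and at 1.5-fold 12.2% and 14.9%. The members' median was 0.06. *Smg5*, at 0.06 (-0.01 to 0.12), and *Rida*, at -0.20 (-0.41 to 0.02), were within counting error. This contrast shares no library with knockdown against control. Of the 9 members 5 had ratios above 0 in both contrasts and 1 (*Upf1*) below 0 in both, and the share with equal sign was 66.7%, against 62.2% of all tested genes.

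**Figure D2:**
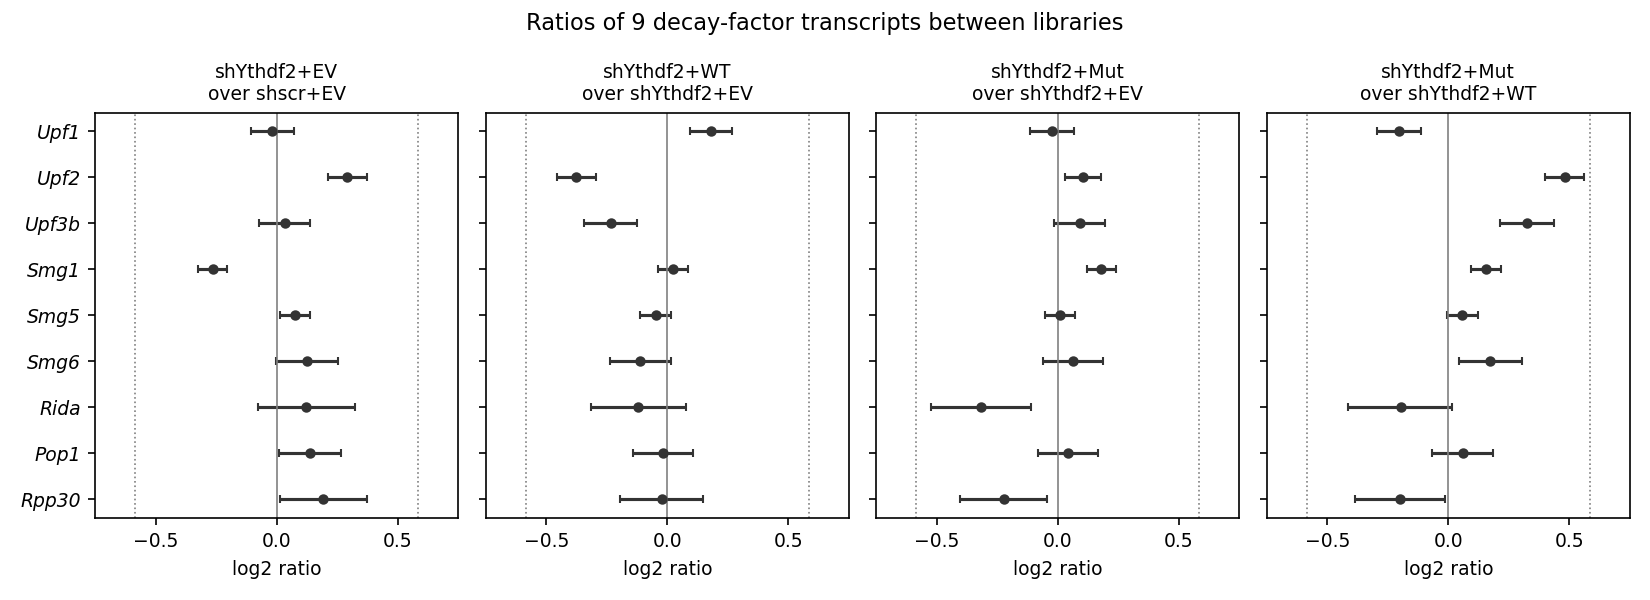
Log2 ratios (horizontal axis) of the 9 members in 4 comparisons of libraries, 1 point per gene with its 95% counting interval, and dotted lines at 1.5-fold. All points lie inside the dotted lines, and *Upf2* is at 0.29 on knockdown, -0.38 with wild-type rescue and 0.48 in mutant over wild-type.

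Against the scrambled control, the wild-type rescue left 1 member higher (*Upf1*, 0.16) and 2 lower (*Upf3b*, -0.20, and *Smg1*, -0.24) beyond counting error, beside 15.8% and 16.4% of tested genes and 23.8% and 28.3% of the deeper ones. At 2-fold, 3.82% of tested genes were higher and 3.07% lower there, and at 1.5-fold 9.28% and 7.15%. The mutant rescue left 5 members higher (*Upf2*, *Upf3b*, *Smg5*, *Smg6* and *Pop1*) and 1 lower (*Smg1*), beside 21.7% and 21% of tested genes and 31.2% and 28.7% of the deeper ones. Past 2-fold were 6.55% (higher) and 5.69% (lower) of tested genes, and past 1.5-fold 12.5% and 13.2%. *Upf2*, at 0.39 (0.31 to 0.48), was the furthest of them. *Ythdf2* was above its control level in both rescues.

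The GC content of the transcripts moved with the rescue ratios. Over 10512 genes that averaged 200 or more reads and share the same libraries, Spearman's rho between GC content and log2 ratio was 0.43 for shYthdf2+WT over shYthdf2+EV, -0.50 for shYthdf2+Mut over shYthdf2+WT and -0.02 for shYthdf2+EV over shscr+EV. It was 0.54 for shYthdf2+WT over shscr+EV, -0.26 for shYthdf2+Mut over shYthdf2+EV and -0.19 for shYthdf2+Mut over shscr+EV. *Upf1* had the highest GC content of the members, 57.9%, and *Upf2* and *Upf3b* had 43.5% and 42.7%. In mutant over wild-type, tested genes in the GC bin of *Upf1* had a median of -0.30, and those in the bins of *Upf2* and *Upf3b* had 0.18 and 0.23. Relative to their own bins the ratios became 0.10 for *Upf1*, 0.30 for *Upf2* and 0.09 for *Upf3b*. The *Upf1* ratio of wild-type rescue to knockdown became -0.01 and the same value for *Upf2* was -0.26. For *Upf1* the ratio of wild-type rescue to control went from 0.16 to -0.03. *Upf2* kept its direction in mutant over wild-type and in wild-type rescue over knockdown, at smaller size, and its ratio of wild-type rescue to control went from -0.09 to 0.05. *Rida*, the member with the lowest GC content (41.1%), went from -0.20 to -0.45 in mutant over wild-type, since its bin had a median of 0.26. The ratio of *Smg1* there went from 0.16 to 0.00. For knockdown over control, *Upf2* was 0.30 and *Smg1* was -0.28 relative to their bins. The part of GC content in these ratios was not tested.

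**Figure D3:**
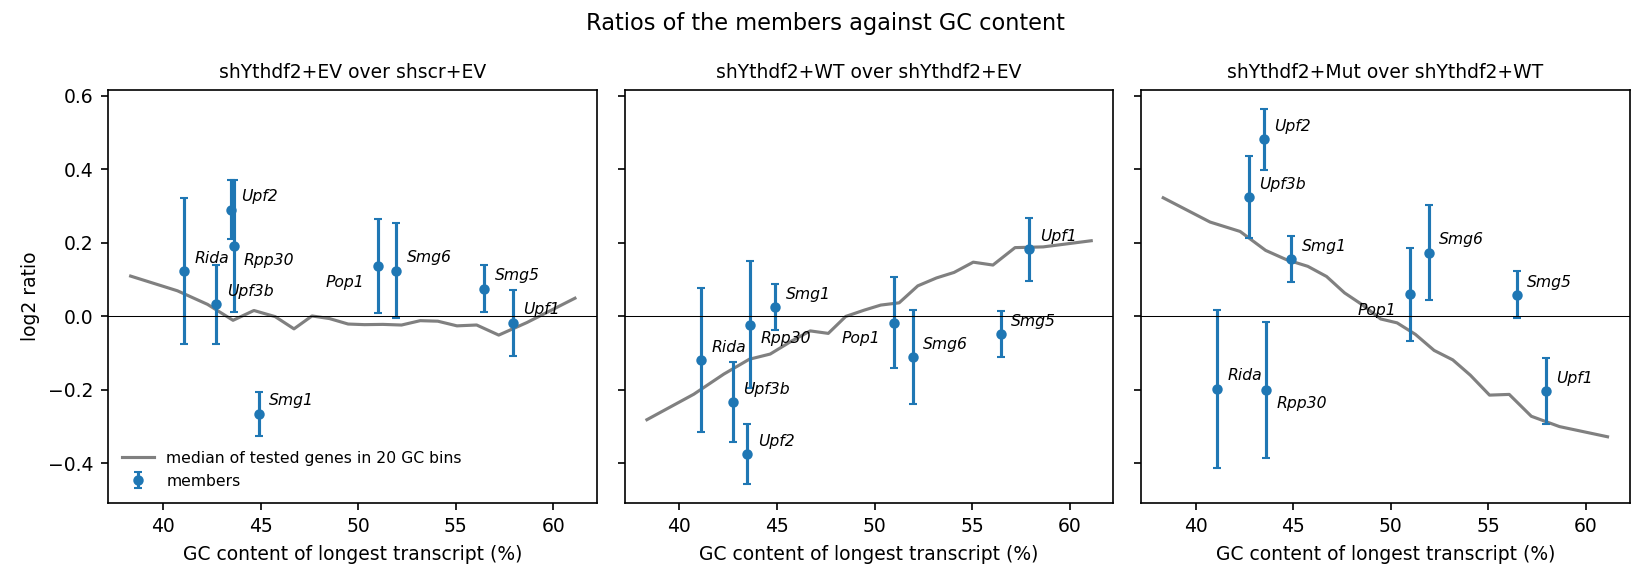
Log2 ratios of the members (points with 95% counting intervals) against the GC content of their transcripts, in percent, with the median of tested genes in 20 GC bins as a grey line. *Upf1*, at 57.9% GC, lies on the line in wild-type rescue over knockdown and 0.10 above it in mutant over wild-type, while *Upf2*, at 43.5%, lies 0.30 above it there.

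Levels were compared between genes per length, as CPM per kilobase of summed exons. In shscr+EV the order was *Smg5* (31.8), *Rpp30* (24.2), *Rida* (24.0), *Upf1* (23.2), *Smg1* (18.5), *Upf2* (15.6), *Pop1* (12.5), *Upf3b* (10.1) and *Smg6* (8.68). Each was above 67.2% to 88.6% of all tested genes, whose median was 3.31. By summed exons *Smg5*, the adaptor, stood at 3.66 times the level of *Smg6*, the endonuclease. This ratio was 3.54, 3.70 and 3.41 in shYthdf2+EV, shYthdf2+WT and shYthdf2+Mut.

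The order depends on the length used. With the length of the GENCODE transcript of longest coding sequence in place of all exon bases, *Upf3b* stood at 36.0 and moved from rank 8 to rank 2, because the table counts 8363 exon bases for it and that transcript has 2344. *Smg5* stayed the highest at 52.8, and its ratio to *Smg6* was 5.53. Over the exon bases that no other gene shares, *Smg6* stood at 12.0, the ratio of *Smg5* to it was 2.64, and *Upf3b* became the lowest. These choices leave the ratios between libraries as they are, since a length cancels within a gene.

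**Figure D4:**
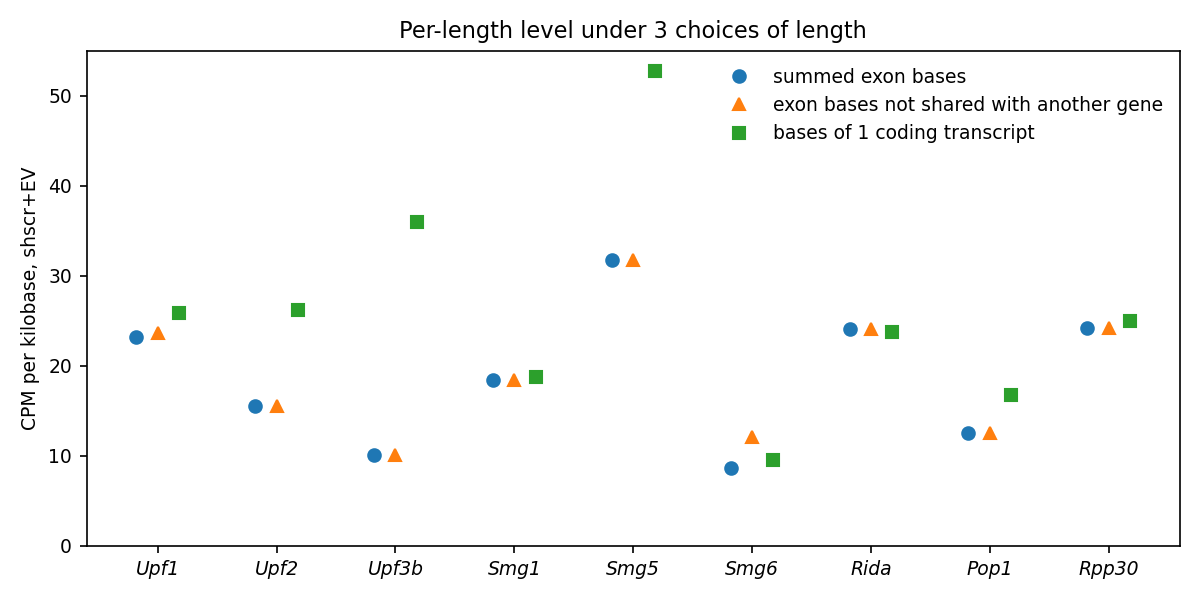
Level of each member in shscr+EV, in CPM per kilobase, with 3 choices of length as circles, triangles and squares. *Smg5* is highest under each, and *Upf3b* ranges from 10.1 to 36.0.

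The ratios between partners also varied between libraries, and no interval was computed for them. *Upf2* stood at 0.67 of *Upf1* per length in shscr+EV, 0.83 in shYthdf2+EV, 0.57 in shYthdf2+WT and 0.91 in shYthdf2+Mut. The paralog *Upf3a* stood at 1.39, 1.60, 1.74 and 1.09 times *Upf3b* in that order, the mutant rescue being the lowest. *Cnot1* stood at 4.18, 3.58, 3.06 and 4.35 times *Upf1*. *Rida* was within 0.93 to 1.14 times *Upf1* in all 4 libraries. With transcript lengths *Upf2* stood at 1.01, 1.25, 0.85 and 1.37 of *Upf1*, and *Upf3a* at 0.51, 0.59, 0.64 and 0.40 of *Upf3b*. Which partner is higher thus depends on the length, while the order of the libraries does not. *Upf1* and *Upf2* also differ in GC content, at 57.9% and 43.5%. In mutant over wild-type their log2 ratios of -0.20 and 0.48 became 0.10 and 0.30 relative to GC bins. The part of GC content in the ratios between partners was not tested.

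The other genes of these routes were described by lists. Among 9 other NMD factors the median log2 ratio of knockdown over control was 0.14, with 4 higher and 3 lower beyond counting error. Of genes averaging 500 or more reads, 31.7% were higher and 31.9% lower in this way. *Pnrc2* (0.39), a decapping activator, was highest and *Nbas* (-0.49) lowest. In mutant over wild-type the list had a median of 0.21, from *Smg8* (0.35), a regulator of SMG1, to the helicase *Dhx34* (-0.43), and relative to GC bins that median was 0.02. *Smg8* was among 3 of these 9 genes above 0 in both contrasts, as *Upf2* was among 5 of the 9 members. Of the 18586 tested genes 5669 were above 0 in both. The 6 genes of the exon junction complex, the mark of a spliced junction, had medians of 0.07 and -0.23 in these contrasts. *Magohb* (0.52) was highest and *Rbm8a* (-0.10) lowest on knockdown, and *Magohb* (0.27) and *Rnps1* (-0.44) were the ends of the list in mutant over wild-type. *Magoh* and *Magohb* are near-identical paralogs, and reads that fit both were not counted.

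Of 11 other RNase P/MRP components, 8 were tested. Their median on knockdown was 0.16, from *Rpp40* (-0.25) to *Pop7* (0.81). *Pop7* was counted 237 times in shscr+EV, 474 in shYthdf2+EV, 362 in shYthdf2+WT and 299 in shYthdf2+Mut, and the mutant rescue was within counting error of control, at 0.33 (-0.03 to 0.69). In mutant over wild-type the median was -0.22, between *Rpp40* (0.35) and *Rpp21* (-0.65). *Rpp14* was listed at 0 in every library, and all of its 2467 exon bases are shared with *Htd2*, so reads there belong to no gene of this table. The RNA subunits *Rpph1* (4 to 12 reads) and *Rmrp* (0 to 3 reads) have no poly(A) tail and fell below the filter. The members *Pop1* and *Rpp30* were therefore followed without the RNA they bind.

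Transcripts known to be NMD-sensitive, among them stress factors and snoRNA host genes, did not share 1 direction on knockdown. Of 11, 5 were higher and 4 lower beyond counting error, with a median of 0.07. The shares of all tested genes were 23.2% and 22.9%, and of those averaging 500 or more reads 31.7% and 31.9%. *Atf3*, a stress transcription factor, was highest at 1.12, counted only 72 times in shscr+EV and 179 in shYthdf2+EV. It was the 1 gene of the list past 2-fold on knockdown. *Atf4*, whose mRNA has upstream reading frames, was counted 979, 2221, 1553 and 2026 times, with 1.00 on knockdown and 0.43 in mutant over wild-type. *Gadd45b*, counted 1526, 1051, 1918 and 862 times, was lowest in both contrasts at -0.72 and -1.10. In mutant over wild-type 7 were lower and 1 (*Atf4*) higher beyond counting error, with a median of -0.29, or -0.52 relative to GC bins. Of all tested genes 23.6% were lower and 23.9% higher beyond counting error there.

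CCR4-NOT, the deadenylase that the study set beside these routes, had a median of -0.02 on knockdown, from *Cnot7* (0.17) to *Cnot1* (-0.24). *Cnot1*, its scaffold, was counted 29444 times in shscr+EV, 28330 in shYthdf2+EV, 25173 in shYthdf2+WT and 29983 in shYthdf2+Mut. In mutant over wild-type 9 of the 10 were higher, 8 of them beyond counting error. The median was 0.30, from *Cnot8* (-0.06) to *Cnot2* (0.46). Relative to GC bins that median was 0.06. In the same comparison 52.8% of genes averaging 500 or more reads were higher, and 37.1% were so beyond counting error. Among 15 genes of decapping and 5′ decay the median was 0.04 on knockdown and -0.08 in mutant over wild-type. *Lsm7* was highest on knockdown (0.59) and lowest in mutant over wild-type (-0.69), and *Dcp1b* was the reverse, at -0.96 and 0.45, on 129 to 221 reads.

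**Figure D5:**
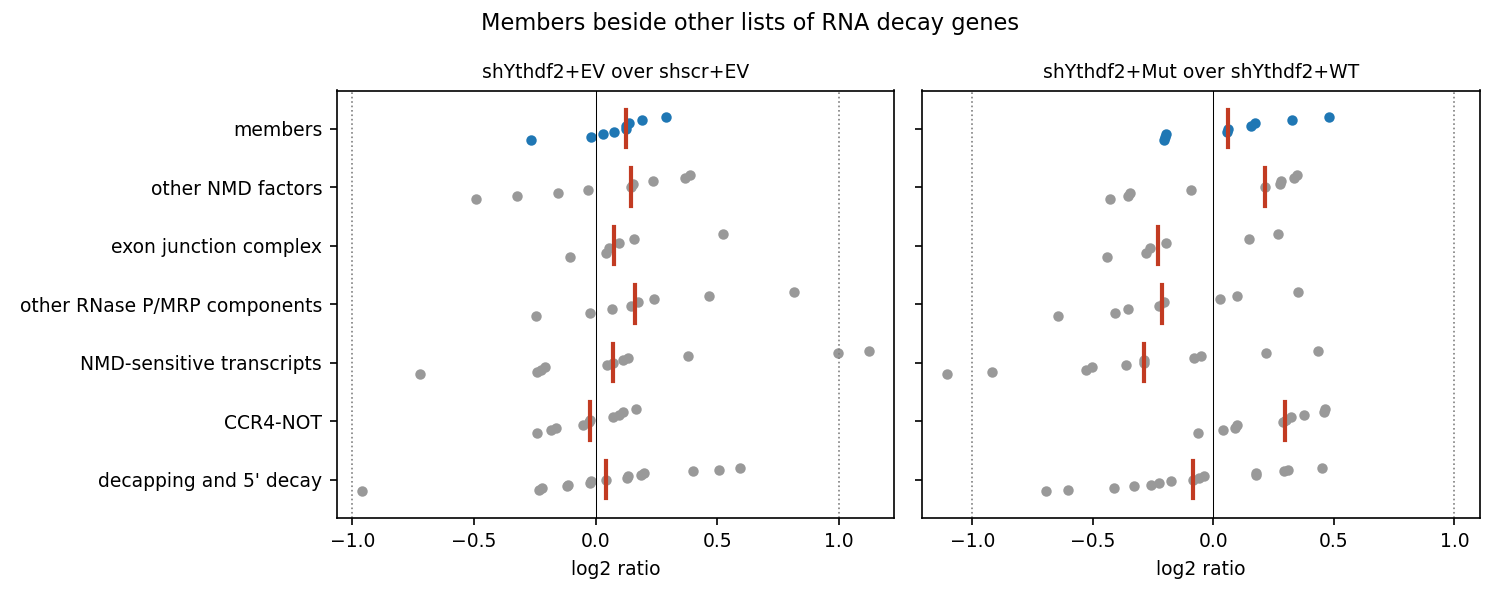
Log2 ratios of the members (blue) and of 6 other lists of RNA decay genes (grey), 1 point per tested gene, with the list median as a red bar and dotted lines at 2-fold, for knockdown over control (left) and mutant over wild-type rescue (right). The members lie between -0.27 and 0.48, and the CCR4-NOT median is -0.02 on the left and 0.30 on the right.

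For *Upf1* and *Rida*, which the study silenced, the genes with the most similar profiles were sought among 10808 genes averaging 200 or more reads, by the Euclidean distance of log2 CPM centred over the 4 libraries. Nearest to *Upf1* were *Trmt61b*, *Tvp23b* and *Mrpl42*, at distances of 0.018 to 0.019. Nearest to *Rida* were *Tmem38b* at 0.015, *Nhlrc1* at 0.042 and *Dpy30* at 0.050. With 4 libraries such likeness is a description only.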

How the data were processed

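Paired-end RNA-seq of 4 ESC libraries, 1 per group, was used. The deposited values are read counts per gene that the authors made with featureCounts 2.0.3 on the mm39 RefSeq annotation, per the file headers, counting both mates, without strand and without multi-mapping or multi-overlap reads. The submitters' processing notes list fastp 0.19.4, HISAT2 2.2.1, DESeq2 1.40.2 and mm10, so which build was aligned to is unclear. Gene coordinates are those of the mm39 table.

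The study's methods name 2 biological replicates, while the labels give 1 library per group, so no test was run and precision is that of counting. TMM factors (edgeR 4.0.16, R 4.3.3) came from genes averaging 10 or more reads. Log2 ratios used a prior count of 0.5, and intervals used reads divided by 2. Sequence features came from GENCODE vM21 on mm10. *Pat1b* of the decapping list is in the table as *Patl1*. The interval calculation was tested on simulated data. Alternatives were other scalings, a prior count of 5, filters, folds, and centring by GC bin or chromosome. Named genes were the members, *Ythdf2*, *Cnot1*, the highest and lowest gene of each list (averaging 50 or more reads) in knockdown over control and in mutant over wild-type, and the nearest profiles. A further gene of this rule is not reported here. Further genes were named after their values were seen: *Upf3a*, *Magoh*, *Rpp14*, *Rpph1*, *Rmrp*, 2 markers at 0 and the genes that share exons. Members and lists were chosen with earlier results of these data known.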

Additional observations from a re-analysis of the deposited data

How the results depend on the processing

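No member reached 2-fold under any scaling or centring run, nor 1.5-fold under TMM scaling. The members' median stayed within the counting interval of its middle gene in 42 of 42 recalculations, although that of shYthdf2+WT over shscr+EV went from 0.01 to -0.03 with GC-bin centring. Of 378 member ratios under alternatives, 354 stayed within their counting interval, 21 moved more (17 under GC-bin centring and 4 under chromosome centring) and 3 that were beyond counting error changed sign. The 3 were those of *Upf1* under GC-bin centring, which became -0.0068 for shYthdf2+WT over shYthdf2+EV, 0.096 for shYthdf2+Mut over shYthdf2+WT and -0.032 for shYthdf2+WT over shscr+EV. Of 324 list medians 6 moved. Other NMD factors moved to 0.187 on knockdown with total counts, to -0.0287 for shYthdf2+Mut over shYthdf2+EV with chromosome centring and to 0.0243 for shYthdf2+Mut over shYthdf2+WT with GC-bin centring. With GC-bin centring, decapping genes moved to -0.102 for shYthdf2+Mut over shYthdf2+EV, and for shYthdf2+Mut over shYthdf2+WT NMD-sensitive transcripts moved to -0.516 and CCR4-NOT to 0.0624. The share of all genes called moved with filter and fold. In the order shYthdf2+EV over shscr+EV, shYthdf2+WT over shYthdf2+EV, shYthdf2+Mut over shYthdf2+EV, shYthdf2+Mut over shYthdf2+WT, shYthdf2+WT over shscr+EV and shYthdf2+Mut over shscr+EV, it was 27.95%, 25.64%, 21.34%, 25.91%, 22.05% and 26.38% with genes averaging 1 or more reads, 5.97%, 4.39%, 0.843%, 5.09%, 1.09% and 5.57% with 50 or more, and 26.69%, 23.30%, 15.29%, 27.05%, 16.43% and 25.65% at 1.5-fold. The cause of these moves was not tested, beyond the changed filter or fold itself. No paired analysis was possible because each group has 1 library. Alternative lengths for the levels were chosen after seeing the data. The spread between cultures is unknown, so differences of the size seen here cannot be told apart from it.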
